A study of Mus musculus with 28 samples.

Results

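Expression of 8 genes was followed across sorted mouse mammary cells: 7 genes of the MHC class II pathway (H2-Aa, H2-Ab1, H2-Eb1, H2-DMa, H2-DMb1, Cd74 and Ciita) and Ptprc, which encodes the leukocyte surface protein CD45. They were chosen by name, and each matched 1 of the 50600 gene rows of the count table, so 8 of 50600 rows are described. RNA-seq was carried out on 28 libraries from 7 adult female PdgfrαCre R26mTmG mice on the C57BL/6 background, in which every cell that has expressed Pdgfrα-Cre, and its progeny, carries membrane GFP and all other cells carry membrane tdTomato. GFP+ and tdTomato+ cells were sorted from the stroma and from the luminal epithelium of each mouse, giving 4 subsets. In each subset 4 mice were untreated and 3 had received estradiol plus progesterone (E+P) from slow-release pellets. Cre was constitutive in this model, so GFP marks any past activity of the promoter and not activity at the time of sorting. CD45+, CD31+ and Ter119+ cells had been gated out before the sort, so leukocytes were meant to be absent from all 28 libraries.

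MHC class II molecules show peptides taken from the endosome to CD4+ T cells. H2-Aa and H2-Ab1 encode the alpha and beta chains of I-A, and H2-Eb1 encodes the beta chain of I-E, whose alpha chain gene is inactive in C57BL/6 mice. Cd74 is the invariant chain that chaperones new class II dimers, H2-DMa and H2-DMb1 form the H2-M heterodimer that exchanges peptides, and Ciita is the transactivator that sets the transcription of the whole group. Dendritic cells, macrophages and B cells make class II constitutively, and many other cells, epithelium included, make it after interferon gamma.

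The class II promoters are known for an X box followed by a Y box, read by a complex of RFX, CREB and NF-Y that recruits Ciita. RefSeq promoter windows (GRCm38.p6, 250 bases before to 50 after a start) were at hand for 5 of the 8 genes: H2-Aa, H2-Eb1, H2-DMa, H2-DMb1 and Ptprc. The letters searched, on both strands, were TGATTGG for the Y box and GNAACT for the core of the X box, with 18 to 30 bases between them. They were picked after these windows had been read. TGATTGG stood in 7.82% and GNAACT in 42.8% of 32851 promoter windows, and the ordered pair in 47 of them, or 0.143%. H2-Aa, H2-Eb1 and H2-DMb1 held the pair, with 25, 24 and 25 bases between the motifs. Neither of the 2 windows of H2-DMa and neither of the 2 of Ptprc held it. The 150 bases before the start of the 3 promoters with the pair are shown because they hold the shared pair, with both motifs in capitals. Starts are those of RefSeq, and that of H2-DMb1 lies inside the gene as GENCODE draws it. They lie at chr17:34287824-34287973 on the minus strand, chr17:34305717-34305866 on the plus strand and chr17:34153041-34153190 on the plus strand.
H2-Aa: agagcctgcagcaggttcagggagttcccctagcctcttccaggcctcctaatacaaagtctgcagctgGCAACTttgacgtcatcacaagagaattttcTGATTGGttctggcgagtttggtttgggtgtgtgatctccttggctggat
H2-Eb1: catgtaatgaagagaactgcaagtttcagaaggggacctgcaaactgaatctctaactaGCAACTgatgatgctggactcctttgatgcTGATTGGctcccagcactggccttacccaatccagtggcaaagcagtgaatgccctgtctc
H2-DMb1: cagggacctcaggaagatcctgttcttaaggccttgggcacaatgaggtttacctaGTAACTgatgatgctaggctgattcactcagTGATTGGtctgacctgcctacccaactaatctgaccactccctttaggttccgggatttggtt

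In GRCm38 the I-A, I-E and H2-M genes lie together on chromosome 17: H2-DMa at chr17:34119541-34139101, H2-DMb1 at chr17:34153072-34160230, H2-Ab1 at chr17:34257689-34269419, H2-Aa at chr17:34282744-34287823 and H2-Eb1 at chr17:34305867-34316674, all on the plus strand except H2-Aa. Cd74 (chr18:60803848-60812652), Ciita (chr16:10480059-10528418) and Ptprc (chr1:138062861-138175708, minus strand) lie elsewhere. H2-DMa shares 360 exon bases, 10.4% of its exons, with Brd2 on the opposite strand, and Ciita shares 329 with Dexi. Of the 75-base stretches of H2-DMb1, 15.8% also occur in its neighbour H2-DMb2. Whether the counting used strand is not given in the sources used here, so part of these counts could belong to the neighbour.

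Libraries held 8623383 to 24583803 gene counts, and no 2 libraries were identical. The labels fitted the markers: the 5 luminal genes (Krt8, Krt18, Krt19, Epcam, Cdh1) summed to 4219 to 7325 CPM (counts per 1000000 counts of the library) in luminal libraries and 3.18 to 468 in stromal ones. The 6 fibroblast genes summed to 30473 to 60021 CPM in GFP+ stroma and 1760 to 6408 in tdTomato+ stroma. The tdTomato+ stroma also carried smooth muscle and pericyte genes (5251 to 8523 CPM) and skeletal muscle genes (1814 to 15725 CPM), so it was a mixture. A count of 3, taken as the floor of detection, was worth 0.116 to 0.302 CPM. Without molecular identifiers such a floor covers counting error alone. CPM here were scaled over all 28 libraries with TMM.

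All 8 genes were scarce. The highest value in any library was 28.2 CPM, for Cd74 in tdTomato+ stroma. Levels of different genes are compared per kilobase of exon. On that scale Cd74 led in tdTomato+ stroma with 10.4 ± 5.65 CPM per kb (SD, n = 7 mice). H2-Ab1 (1.84 ± 1.41), H2-DMb1 (1.53 ± 0.624), H2-Eb1 (1.31 ± 0.610), H2-DMa (1.01 ± 0.151) and H2-Aa (0.763 ± 0.578) followed there, neighbours in this order differing by less than the larger of their SDs. The order was another in tdTomato+ luminal cells, where H2-DMb1 (2.00 ± 0.699 CPM per kb) and H2-DMa (1.22 ± 0.811) stood above Cd74 (0.633 ± 0.276) and above the means of the I-A and I-E chains (0.0610 to 0.289), though H2-DMa and Cd74 differed by less than the SD of H2-DMa. In GFP+ luminal cells Cd74 (1.31 ± 0.598 CPM per kb) and H2-DMb1 (1.12 ± 0.517) were highest. GFP+ stroma had no gene above 0.476 CPM per kb.

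**Figure D1:**
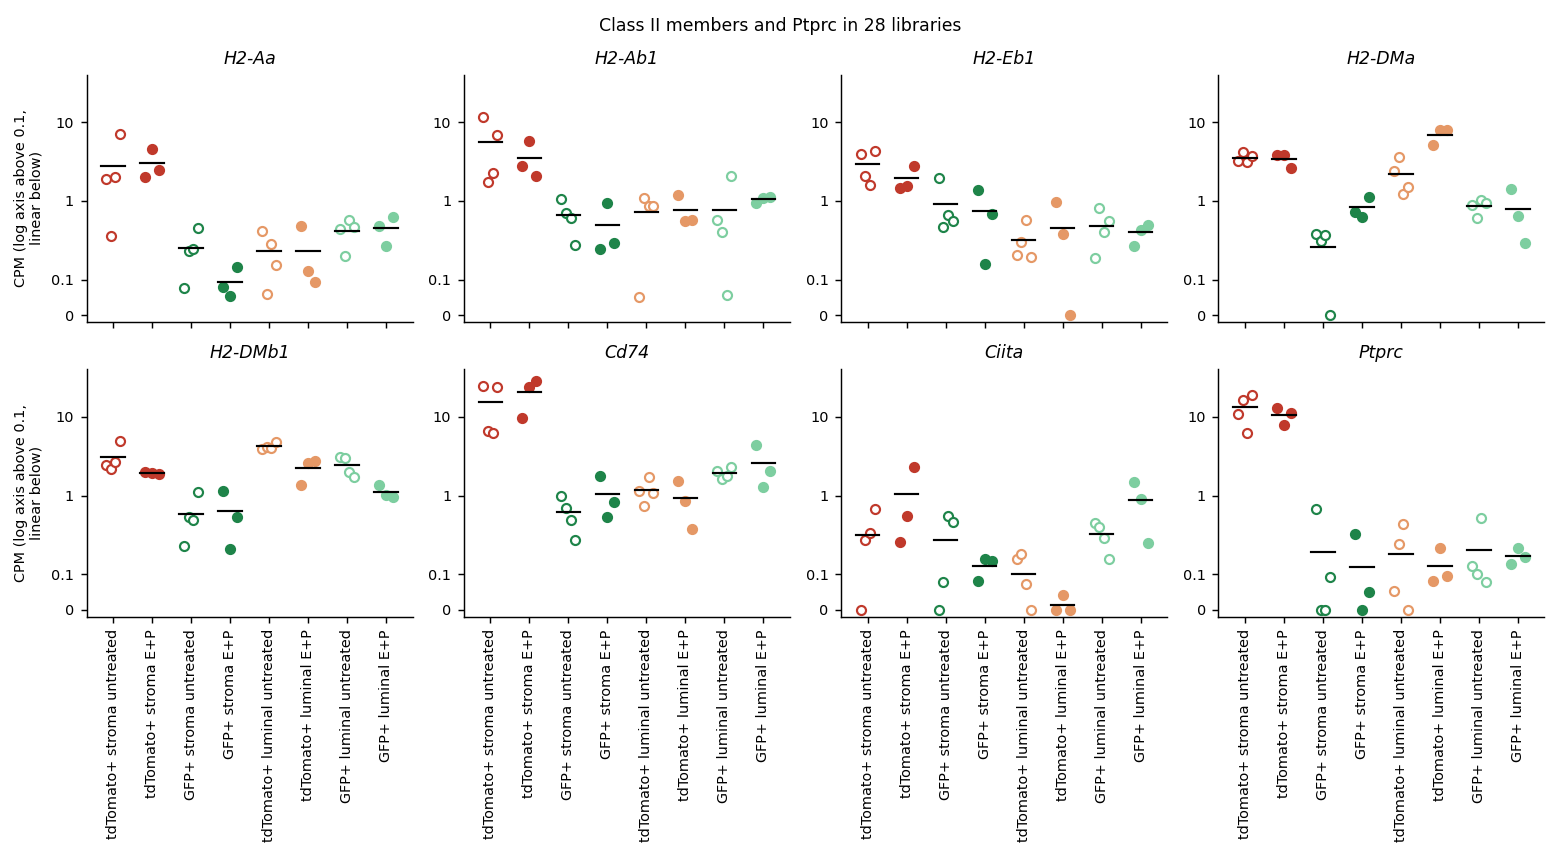
CPM of each gene (y axis, logarithmic above 0.1 and linear below) in every library of the 8 groups (x axis), with open circles for untreated mice, filled circles for E+P and black bars for group means. The tdTomato+ stromal libraries stand highest for Cd74 and Ptprc (6.24 to 28.2 and 6.24 to 18.9 CPM). H2-DMa is lower in tdTomato+ luminal cells than in tdTomato+ stroma of each untreated mouse and higher in each E+P mouse. H2-DMb1 overlaps between these subsets in both treatments.

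The first comparison set GFP+ against tdTomato+ stroma, averaged over treatments. Class II RNA was lower in the GFP+ stroma for every I-A, I-E, H2-M and Cd74 gene in 7 of 7 mice, by 1.57 to 4.48 on the log2 scale. Ptprc fell by 6.34 in the same comparison. In bulk samples, fewer cells of a type and less RNA per cell cannot be told apart.

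H2-Aa, the alpha chain of I-A, was 1.90, 0.361, 1.99 and 6.99 CPM in untreated tdTomato+ stroma and 1.99, 4.59 and 2.45 CPM with E+P. In GFP+ stroma it lay between 0.0528 and 0.459 CPM, on 1 to 5 counts a library. The 2 ranges overlapped through 1 untreated tdTomato+ library at 0.361 CPM, yet within each mouse the tdTomato+ value was the higher. The log2 fold change was -4.18 ± 0.64 (SE; adjusted p = 2.8e-05, edgeR quasi-likelihood test). H2-Ab1, the beta chain of I-A, was 1.72 to 11.6 CPM in tdTomato+ stroma (median 2.76) and 0.243 to 1.06 in GFP+ stroma (median 0.610). These ranges did not overlap, and the log2 fold change was -2.94 ± 0.51 (adjusted p = 1.0e-04). H2-Eb1 was 1.48 to 4.27 CPM against 0.158 to 1.97, with 1 untreated GFP+ library at 1.97 inside the tdTomato+ range. Its log2 fold change of -1.57 ± 0.49 missed the threshold of 0.01 (adjusted p = 0.0124). With the mouse as a block the adjusted p was 0.00997. Over 15 alternatives it ran from 0.00234 to 0.142.

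Cd74, the invariant chain, had the highest level of the class II genes in tdTomato+ stroma. Without treatment the tdTomato+ stromal libraries held 24.3, 6.59, 6.24 and 23.4 CPM of Cd74, and with E+P 9.59, 23.4 and 28.2 CPM. In GFP+ stroma it was 0.984, 0.697, 0.488 and 0.275 CPM in untreated mice and 1.78, 0.528 and 0.836 CPM with E+P. Every tdTomato+ value was above every GFP+ value, though the tdTomato+ libraries themselves split into 3 between 6.24 and 9.59 CPM and 4 between 23.4 and 28.2 CPM, with both treatments in each set. The log2 fold change was -4.48 ± 0.46 (adjusted p = 1.1e-06).

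The H2-M genes differed in the same direction. H2-DMa was 2.63 to 4.15 CPM in tdTomato+ stroma (median 3.69) and 0 to 1.13 in GFP+ stroma (median 0.378), a log2 fold change of -2.86 ± 0.41 (adjusted p = 1.4e-05). H2-DMb1 was 1.90 to 4.86 CPM against 0.211 to 1.14, a log2 fold change of -2.03 ± 0.45 (adjusted p = 0.00101). Neither pair of ranges overlapped. H2-DMb1 did not pass in E+P-treated mice alone (log2 fold change -1.66, adjusted p = 0.0573), an alternative added after seeing the data. Brd2, which overlaps H2-DMa, was lower in the GFP+ stroma by far less (log2 fold change -0.52 ± 0.11, adjusted p = 6.2e-04).

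Ciita did not pass the filter on low counts in stroma. It was at 0 to 2.33 CPM in tdTomato+ stroma (median 0.332) and 0 to 0.548 in GFP+ stroma (median 0.148), at or under 3 counts in 2 and 5 of the 7 libraries, and the ranges overlapped. In an exact sign-flip test over mice, two-sided, its log2 CPM differed by -0.88 ± 1.19 (SD) with p = 0.0938. The 2 subsets could therefore not be told apart by Ciita at this depth.

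Counted together, 5 of the 6 class II genes tested were lower in GFP+ stroma at an adjusted p under 0.01, and none was higher. Over all 17783 genes tested in stroma, 21.3% were lower and 20.6% were higher. A gene at these levels passed the filter only through the tdTomato+ libraries, so the count is a description. The median log2 fold change of the 7 members tested was -2.94, beside -0.01 over all genes.

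**Figure D2:**
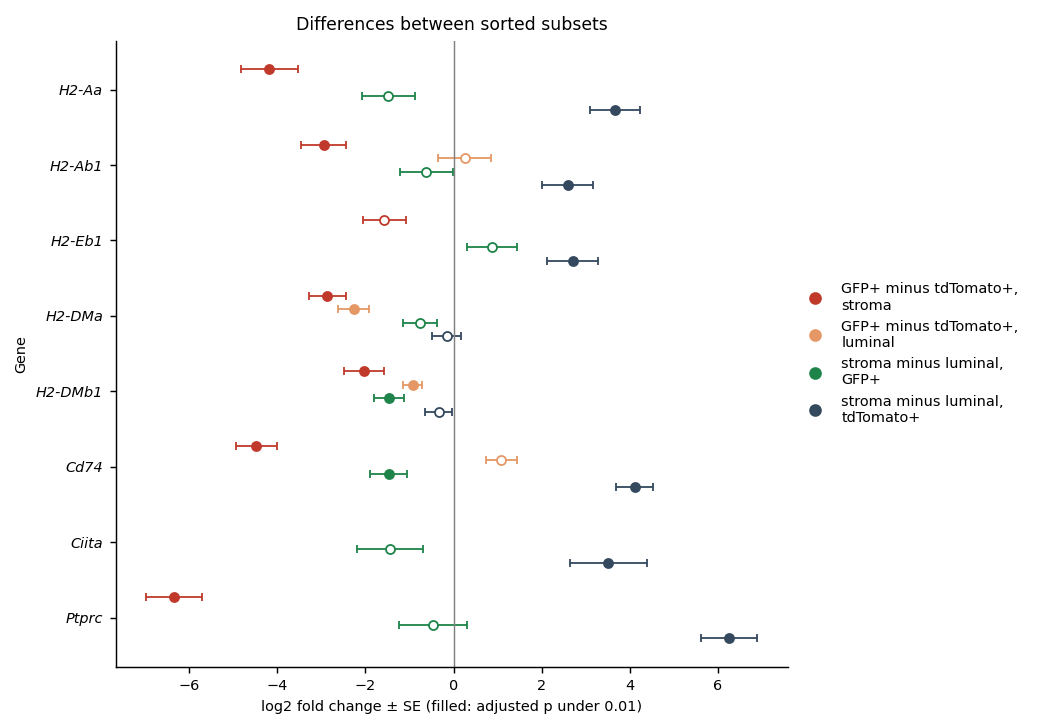
Log2 fold change (x axis) ± SE of each gene (y axis) in the 4 comparisons between sorted subsets, with filled points at an adjusted p under 0.01 and no point where a gene did not pass the filter. In tdTomato+ cells the I-A and I-E chains and Cd74 are higher in stroma than in luminal cells by 2.59 to 4.11. H2-DMa and H2-DMb1 are near 0 (-0.15 and -0.34), an average over treatments in which H2-DMa differs in opposite directions.

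Ptprc moved with the class II genes in stroma. It was 10.8, 16.1, 6.24 and 18.9 CPM in untreated and 13.0, 7.81 and 11.1 CPM in E+P-treated tdTomato+ stroma, a gate meant to exclude CD45+ cells. In GFP+ stroma it was 0 in 3 of 7 libraries and at most 0.681 CPM, without overlap (log2 fold change -6.34 ± 0.63, adjusted p = 5.1e-07). Of the 10 pan-leukocyte genes, Ptprc included, 8 were tested and 6 were lower in GFP+ stroma, beside 21.3% of all genes. In GFP+ stroma 4 of the 10 were at or under 3 counts in every library. A gene this scarce could pass the filter only through the tdTomato+ libraries, so the count is a description. Among the 6 were Rac2 (0.0111 ± 0.0293 against 1.41 ± 1.11 CPM, mean ± SD), Laptm5 (0.0772 ± 0.0632 against 2.00 ± 1.32) and Cd53 (0.0875 ± 0.120 against 1.94 ± 1.13). The 10 genes summed to 19.8 to 35.1 CPM in tdTomato+ and 0.897 to 5.53 CPM in GFP+ stroma. No gene of the list was at 0 in every library of either subset. Itgb2, an integrin chain, was not called (log2 fold change 0.41 ± 0.43, adjusted p = 0.457) and made 69.9% of the sum in GFP+ stroma.

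Lists for single leukocyte types were counted in the same comparison, where 21.3% of all genes were lower. Members at or under 3 counts in GFP+ stroma could pass the filter only through the tdTomato+ libraries, so these counts too are descriptions. Of 6 B cell genes, all were tested and 3 were lower in GFP+ stroma, and the list summed to 3.88 to 11.9 CPM in tdTomato+ and 0.542 to 4.65 CPM in GFP+ stroma, which overlap. Cd79b, of the B cell receptor, was not called (log2 fold change 1.27 ± 0.82, adjusted p = 0.206). Cd79a, of the same receptor, was 0.715 to 2.14 CPM in tdTomato+ and 0.0757 to 0.950 CPM in GFP+ stroma and was not called either (adjusted p = 0.0230). Of 9 T and NK cell genes 2 were tested and 1 was lower, Trac, the T cell receptor alpha constant gene (0.0694 ± 0.145 against 2.33 ± 1.14 CPM). Cd3e, also of the T cell receptor, reached 1.19 CPM in 1 E+P library and lay between 0 and 0.361 CPM in the untreated ones. The macrophage and monocyte list had 7 of 12 genes tested and 2 lower, a share near the 21.3% of all genes. They were Lyz2, lysozyme (0.186 ± 0.228 against 6.06 ± 2.67 CPM), and Mrc1, the mannose receptor (0.123 ± 0.0692 against 1.14 ± 1.14 CPM).

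The defining macrophage gene Adgre1 (F4/80) was at 0 counts in all 7 tdTomato+ stromal libraries, 1 of 2 macrophage genes at 0 in all of them, and Csf1r was at 0.153 to 1.71 CPM there and 0.151 to 1.54 CPM in GFP+ stroma. Itgax and Flt3, of dendritic cells, were at 0 to 0.542 and 0 to 0.451 CPM in tdTomato+ stroma. The macrophage list summed to 29.8 to 56.3 CPM in tdTomato+ and 24.95 to 40.9 CPM in GFP+ stroma, of which Mertk made 55.3% and 80.7%. The dendritic cell list summed to 18.5 to 36.4 and 27.2 to 48.9 CPM, of which Zbtb46, also an endothelial gene, made 93.4% and 95.1%. The T and NK cell list summed to 2.85 to 9.61 and 0.0610 to 0.739 CPM. Endothelial genes moved in this comparison too, although CD31+ cells had been gated out. Of 6 tested 4 were lower in GFP+ stroma and 1 was higher, beside 21.3% and 20.6% of all genes. Among the lower were Pecam1, which encodes CD31 (0.838 ± 0.343 against 26.2 ± 16.3 CPM), and Cdh5 (1.77 ± 1.40 against 44.4 ± 35.6 CPM). Tek was higher (log2 fold change 2.46 ± 0.29). The endothelial list summed to 77.4 to 258 CPM in tdTomato+ and 139 to 273 CPM in GFP+ stroma, with none of its genes at 0 in all libraries. The part of these leukocyte and endothelial genes in the class II values was not tested.

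The second comparison set GFP+ against tdTomato+ luminal cells. Of the 4 class II genes tested, both H2-M genes were lower in GFP+ cells: H2-DMa fell by 2.27 ± 0.34 and H2-DMb1 fell by 0.93 ± 0.22 on the log2 scale (adjusted p = 1.1e-04 and 0.00316). H2-DMb1 lost its call with the mouse as a block, and in untreated mice alone neither was called. Cd74 and Ciita were higher in GFP+ cells in 7 of 7 mice, though Cd74 missed the threshold and Ciita was under the filter. Of the I-A and I-E chains only H2-Ab1 was tested (0.25 ± 0.60, adjusted p = 0.758).

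H2-DMa was 2.37, 3.59, 1.23 and 1.51 CPM in untreated and 5.05, 7.82 and 7.85 CPM in E+P-treated tdTomato+ luminal cells. In GFP+ luminal cells it was 0.887, 0.604, 1.03 and 0.943 CPM in untreated and 1.43, 0.646 and 0.291 CPM in E+P-treated mice. The groups did not overlap within either treatment. In untreated mice alone the log2 fold change was -1.32 (adjusted p = 0.0401), and with E+P alone it was -3.21. Both are alternatives added after seeing the data. Brd2 did not move with it (log2 fold change 0.00 ± 0.10, adjusted p = 0.983).

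H2-DMb1 was 3.92, 4.14, 3.98 and 4.77 CPM in untreated and 1.36, 2.56 and 2.76 CPM in E+P-treated tdTomato+ luminal cells. In GFP+ luminal cells it was 3.04, 3.02, 2.00 and 1.73 CPM, and 1.36, 1.02 and 0.957 CPM with E+P. The GFP+ value was the lower in 7 of 7 mice. The call was lost with the mouse as a block (log2 fold change -0.93, adjusted p = 0.0126) and without untreated replicate 3 or 4 or E+P replicate 2 or 3 (adjusted p from 0.0104 to 0.0363). H2-DMb2, with which its reads could be confused, had at most 1 count in any of the 14 luminal libraries.

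Cd74 was 2.03, 1.61, 1.77 and 2.28 CPM in untreated GFP+ luminal cells and 4.35, 1.29 and 2.04 CPM with E+P. In tdTomato+ luminal cells it was 1.14, 0.730, 1.74 and 1.09 CPM and, with E+P, 1.52, 0.855 and 0.380 CPM. The ranges overlapped. The log2 fold change of 1.08 ± 0.35 missed the threshold (adjusted p = 0.0206), and over 15 alternatives the adjusted p ran from 0.00600 to 0.265. Ciita did not pass the filter in luminal cells. It was 0.157 to 1.495 CPM in GFP+ (median 0.403) and 0 to 0.182 CPM in tdTomato+ luminal cells (median 0.0427), the latter at or under 3 counts in all 7 libraries. Without the filter its log2 fold change was 3.38 ± 0.81 (adjusted p = 0.00189). An exact sign-flip test over 7 mice gave p = 0.0156, the smallest such a test allows, 1 of 16 run over members and lineages. Dexi, which overlaps Ciita, had a log2 fold change of 0.68 ± 0.26 (adjusted p = 0.0420). H2-Aa, also under the filter, was 0.201 to 0.624 CPM in GFP+ and 0.0608 to 0.481 CPM in tdTomato+ luminal cells, higher in 6 of 7 mice (exact p = 0.0312), but its log2 fold change of 0.93 ± 0.62 did not pass without the filter (adjusted p = 0.340). H2-Ab1 (0.0571 to 2.04 against 0.0516 to 1.202 CPM) and H2-Eb1 (0.190 to 0.805 against 0 to 0.961 CPM) overlapped throughout.

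Of 4 class II genes tested in luminal cells, 2 were lower in GFP+ cells and none higher. Over all 16538 genes, 19% were lower and 15.7% higher. Ptprc was at 0 to 0.434 CPM in tdTomato+ and 0.0786 to 0.514 CPM in GFP+ luminal cells, on at most 9 counts, and did not pass the filter. B cell genes summed to at most 0.470 and 0.700 CPM, and T and NK cell genes to at most 0.852 and 0.550 CPM. The luminal subsets differed in their own markers beside this. The 4 hormone-sensing genes (Esr1, Pgr, Prlr, Foxa1) summed to 1686 to 5000 CPM in tdTomato+ and 145 to 1676 CPM in GFP+ cells, and the 3 progenitor genes (Kit, Elf5, Aldh1a3) to 87.7 to 618 and 935 to 2062 CPM. The macrophage list summed to 25.3 to 52.5 CPM in tdTomato+ and 101 to 225 CPM in GFP+ luminal cells, of which Cd14 made 61.3% and 85.7%. Cd14 (123.6 ± 48.0 against 23.6 ± 14.2 CPM) and Mertk (14.3 ± 10.6 against 8.64 ± 8.15 CPM) were higher in GFP+ cells, and Lcp1 was lower (40.1 ± 12.6 against 73.6 ± 25.6 CPM). The part of these markers in the class II differences was not tested.

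Stroma was also compared with luminal cells of the same label. In tdTomato+ cells, 5 of 7 class II genes were higher in stroma, where 31.9% of 19569 genes were higher and 27.4% lower. Members as scarce in luminal cells as H2-Aa passed the filter through the stromal libraries, so this count too is a description. The 5 were Cd74 (log2 fold change 4.11 ± 0.42, adjusted p = 3.5e-09), H2-Aa (3.67 ± 0.57), H2-Eb1 (2.70 ± 0.57), H2-Ab1 (2.59 ± 0.58) and Ciita (3.51 ± 0.88). Ciita lost its call without E+P replicate 3, whose tdTomato+ stromal library held 2.33 CPM (log2 fold change 2.60, adjusted p = 0.0232). Ptprc was higher by 6.25 ± 0.64. H2-DMa and H2-DMb1 did not pass (log2 fold changes of -0.15 ± 0.33 and -0.34 ± 0.31, adjusted p = 0.690 and 0.331). The H2-DMa value averages opposite differences in untreated and E+P-treated mice. Without treatment H2-DMa was 3.12 to 4.15 CPM in tdTomato+ stroma and 1.23 to 3.59 in tdTomato+ luminal cells, lower in the latter in each mouse. With E+P it was 2.63 to 3.83 and 5.05 to 7.85 CPM, higher in the luminal cells of each mouse. Over both treatments H2-DMb1 was 1.90 to 4.86 CPM in tdTomato+ stroma and 1.36 to 4.77 in tdTomato+ luminal cells. Ptprc was 12.01 ± 4.46 CPM in the first of these subsets and 0.160 ± 0.149 CPM in the second.

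In GFP+ cells 2 of 7 class II genes were lower in stroma than in luminal cells and none was higher, beside 24.8% of all genes lower and 27.7% higher. H2-Eb1 gave 0.88 ± 0.57 (adjusted p = 0.184). H2-DMb1 fell by 1.46 ± 0.34 (adjusted p = 5.6e-04) and Cd74 fell by 1.47 ± 0.42 (adjusted p = 0.00361). H2-DMb1 kept its call in 14 of 14 alternatives. Cd74 kept it in 10 of 14, and the adjusted p rose to 0.0632 with limma-voom and to between 0.0103 and 0.0161 without untreated replicate 4 or E+P replicate 2 or 3. Ptprc did not differ by the test (-0.47 ± 0.77, adjusted p = 0.623), with 15 counts in all 7 GFP+ stromal libraries and 23 in the GFP+ luminal ones. Whether these differences between lineages differ between GFP+ and tdTomato+ cells was not tested.

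E+P was then compared with no treatment within each subset. No member was called in any of them at an adjusted p under 0.01 with edgeR, beside 0.124% of all genes in tdTomato+ stroma, 0.231% in GFP+ stroma, 14.1% in tdTomato+ luminal cells and 5.96% in GFP+ luminal cells. At an unadjusted p under 0.05 there were 0, 1, 2 and 1 class II genes. With DESeq2 there were 0, 0, 1 and 1 called, and with limma-voom 0, 0, 1 and 0. The H2-M genes were those nearest the threshold.

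H2-DMa in tdTomato+ luminal cells was 1.23 to 3.59 CPM in the 4 untreated mice and 5.05 to 7.85 CPM in the 3 treated mice, without overlap. The log2 fold change was 1.69 ± 0.44 with an adjusted p of 0.0116, just outside the threshold. It passed in 5 of 14 alternatives, over which the adjusted p ran from 8.5e-04 (limma-voom) to 0.0611. In an exact permutation test of the 4 against 3 libraries p was 0.0571, where the smallest possible is 0.0286. In GFP+ luminal cells the same gene gave -0.20 ± 0.51 (adjusted p = 0.834), with overlapping groups. The difference between the 2 responses, GFP+ minus tdTomato+, was -1.90 ± 0.68 (adjusted p = 0.112). In GFP+ stroma H2-DMa was 0 to 0.378 CPM in untreated and 0.633 to 1.13 CPM in treated mice, also without overlap (log2 fold change 1.60 ± 0.60, adjusted p = 0.382). Brd2 gave 0.04 ± 0.14 (adjusted p = 0.876) in tdTomato+ luminal cells and -0.08 ± 0.15 in GFP+ stroma.

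H2-DMb1 pointed the other way in luminal cells. Its values of 3.92 to 4.77 CPM in untreated tdTomato+ luminal cells stood above those of 1.36 to 2.76 CPM with E+P, and those of 1.73 to 3.04 CPM in untreated GFP+ luminal cells above those of 0.957 to 1.36 CPM with E+P. The log2 fold changes were -0.87 ± 0.31 (adjusted p = 0.0475) and -1.14 ± 0.32 (adjusted p = 0.0307), and exact permutation p was 0.0286 in each, the smallest possible. Over 14 alternatives the adjusted p ran from 0.0162 to 0.18 and from 0.00640 to 0.132. In tdTomato+ stroma the groups did not overlap either (2.17 to 4.86 and 1.90 to 1.99 CPM, log2 fold change -0.65 ± 0.60, adjusted p = 0.638). Of all 19569 genes, 31.4% had groups that did not overlap in tdTomato+ luminal cells, 24.3% in GFP+ luminal cells, 10.1% in tdTomato+ stroma and 12.2% in GFP+ stroma. The luminal markers moved beside this. Hormone-sensing genes summed to 3302 to 5000 CPM in untreated and 1686 to 2755 CPM in treated tdTomato+ luminal cells, and progenitor genes to 151 to 618 and 87.7 to 148 CPM. With E+P 0 of the 4 hormone-sensing genes were called in that subset, and 1 of the 3 progenitor genes, Aldh1a3, was lower. There 14.1% of all genes were called. Hormone-sensing genes in GFP+ luminal cells summed to 251.5 to 1676 CPM in untreated and 145 to 250.3 CPM in treated mice, and progenitor genes to 1274 to 2062 and 935 to 1100 CPM. Of these, Esr1 and Foxa1 were called lower with E+P in the GFP+ cells (adjusted p = 0.00508 and 0.00931). Trp63, a basal gene, was 1.15 ± 0.758 CPM in untreated and 22.2 ± 3.08 CPM in E+P-treated tdTomato+ luminal cells (adjusted p = 5.9e-05). The basal genes Krt5 and Krt14 were not called there (log2 fold changes -0.93 ± 0.93 and 0.16 ± 0.59, adjusted p = 0.492 and 0.868). In the tdTomato+ luminal cells 2 macrophage genes rose with E+P, Mertk (2.35 ± 1.23 to 17.0 ± 3.59 CPM) and Csf1r (0.393 ± 0.211 to 2.06 ± 1.02 CPM, adjusted p = 0.00962), and Cd14 fell (33.0 ± 11.1 to 11.0 ± 3.22 CPM), while Adgre1 had at most 4 counts in a library. In GFP+ luminal cells Mertk rose too (6.09 ± 1.03 to 25.3 ± 3.91 CPM, adjusted p = 0.00119). There Cd68, of the same list, fell (5.77 ± 0.592 to 2.82 ± 0.597 CPM, adjusted p = 0.00845). The part of these markers in the H2-M values was not tested.

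For the other class II genes the groups overlapped in every subset. Cd74 gave log2 fold changes of 0.43 ± 0.52 in tdTomato+ stroma, 0.71 ± 0.71 in GFP+ stroma, -0.35 ± 0.51 in tdTomato+ and 0.40 ± 0.48 in GFP+ luminal cells. Those of H2-Ab1 lay between -0.65 and 0.47. Ptprc gave -0.29 ± 0.60 in tdTomato+ stroma. No interaction of E+P with the label was called for a member by edgeR, beside 0.045% of all genes in stroma and 2.27% in luminal cells. At an unadjusted p under 0.05 there were 0 and 1 class II genes (H2-DMa in luminal cells), and DESeq2 and limma-voom called 0 in each.

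**Figure D3:**
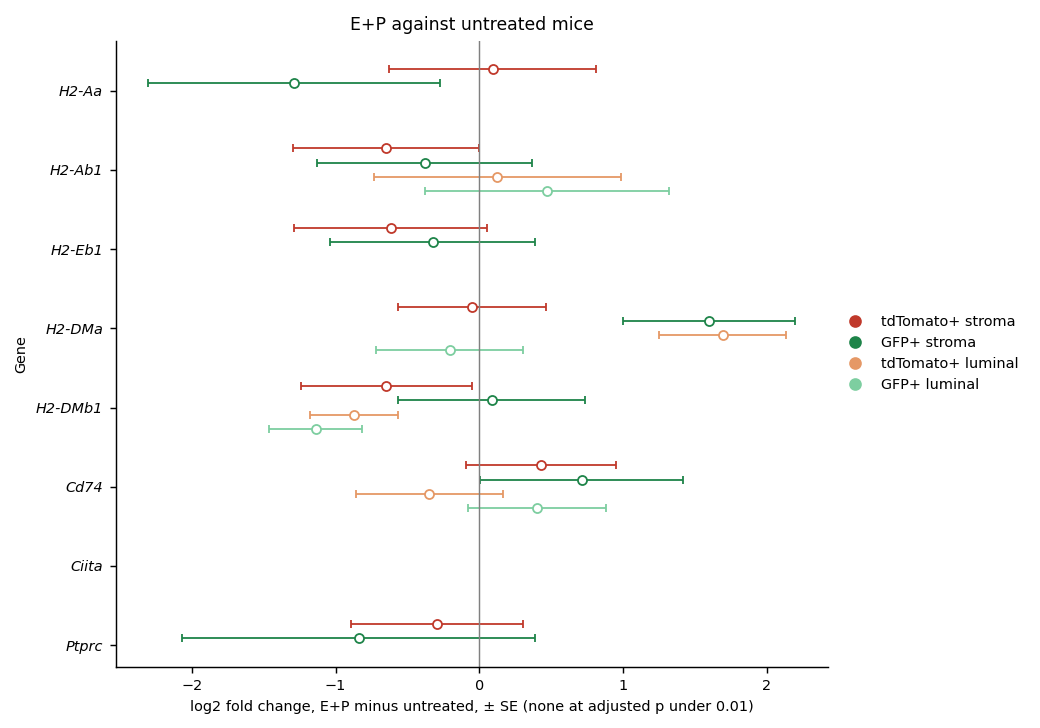
Log2 fold change (x axis, E+P minus untreated) ± SE of each gene (y axis) in the 4 subsets, where open points mark an adjusted p of 0.01 or more and genes under the filter have no point. H2-DMa lies at 1.69 and 1.60 in tdTomato+ luminal cells and GFP+ stroma, and H2-DMb1 at -0.87 and -1.14 in the luminal subsets.

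How far class II RNA went together with leukocyte RNA was asked within subsets. Summed over libraries, Cd74 had 1787 counts and Ptprc 1176 in tdTomato+ stroma, or 1.52 Cd74 counts for each of Ptprc. The ratio was 5.47 in GFP+ stroma (82 and 15 counts), 7 in tdTomato+ luminal cells (133 and 19) and 10.7 in GFP+ luminal cells (245 and 23). All 7 class II genes together had 2.94 counts per Ptprc count in tdTomato+ stroma, and 25.7, 70.2 and 34.7 in the other 3 subsets. So the subset with the most class II RNA was also the one with the least of it per Ptprc count. Outside tdTomato+ stroma these ratios rest on few Ptprc counts, and in GFP+ stroma 9 of the 15 came from untreated replicate 1. Without that library the ratios there were 11.5 for Cd74 and 54 for all class II genes, an alternative added after seeing the data. Of the 1334 class II counts in tdTomato+ luminal cells, H2-DMa held 572 and H2-DMb1 held 457.

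**Figure D4:**
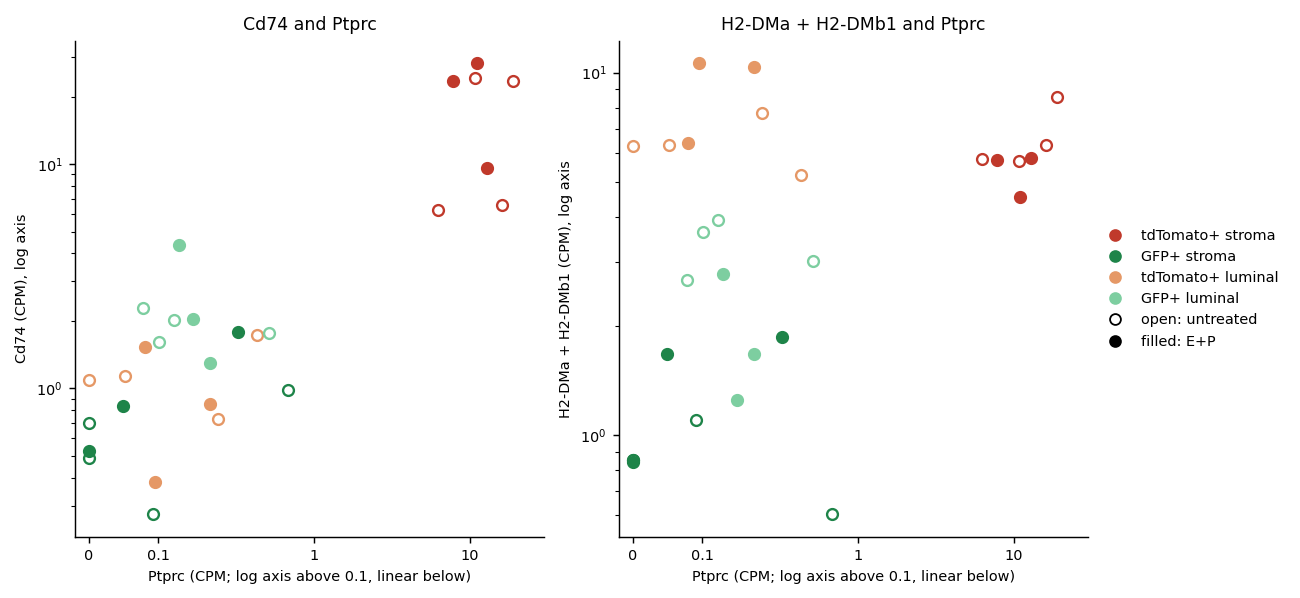
Cd74 (left) and the sum of H2-DMa and H2-DMb1 (right) in CPM on log y axes against Ptprc in CPM (x axis, logarithmic above 0.1 and linear below) in 28 libraries, coloured by subset and filled for E+P. The 7 tdTomato+ stromal libraries stand apart at 6.24 to 18.9 CPM of Ptprc, and tdTomato+ luminal libraries reach their H2-M levels with at most 0.434 CPM of Ptprc.

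Between mice within a subset, the log2 sum of the 7 class II genes was set against that of the 10 pan-leukocyte genes. In tdTomato+ stroma no relation was seen over the 7 mice (Pearson's r = -0.040, exact permutation p = 0.926; Spearman's rho = 0.036, p = 0.963). The r was -0.364 without the 2 mice farthest from the median. In GFP+ stroma r was 0.635 (exact p = 0.115) and rho 0.607 (p = 0.167), and r fell to 0.175 without the 2 farthest mice. In tdTomato+ luminal cells r was -0.770 (exact p = 0.0587) and rho -0.821 (p = 0.0341), with r = -0.588 without the 2 farthest. In GFP+ luminal cells r was -0.621 (exact p = 0.135) and rho -0.714 (p = 0.0881), with r = -0.477. Adjusted over the 4 subsets, the exact permutation p for r was 0.926, 0.18, 0.18 and 0.18, and for rho 0.963, 0.222, 0.137 and 0.176, so none passed 0.05. In the luminal subsets Lcp1 alone made 98.8% and 97.0% of the leukocyte sum, so there the sum was not a measure of leukocytes.

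The rest of the pathway was read from lists of related genes. Of 5 other class II chain genes, H2-DMb2, a second H2-M beta chain, was the 1 tested in stroma. It was 1.09 ± 0.833 CPM in tdTomato+ and 0.0369 ± 0.0703 in GFP+ stroma (log2 fold change -5.23 ± 1.04, adjusted p = 5.2e-04). With at most 3 counts in a GFP+ stromal library, it passed the filter only through the tdTomato+ libraries, so this difference is a description. H2-Oa and H2-Ob, the chains of H2-O, which restrains H2-M in B cells, reached 0.939 and 1.07 CPM in tdTomato+ stroma and were at 0 counts in all 7 GFP+ stromal libraries. H2-Oa was also present in GFP+ luminal cells (0.253 to 0.629 CPM in untreated mice), where H2-Ob was at 0. H2-Ea-ps, the inactive I-E alpha gene, had 1 count in all 28 libraries together.

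The enzymes and sorting proteins of the endosome did not follow the class II genes in stroma. Of 7 such genes 6 were tested. Of these, 5 were higher in GFP+ stroma and 1 was lower, beside 20.6% and 21.3% of all genes. Ctsl, cathepsin L, was 666 ± 61.1 CPM in GFP+ and 130 ± 33.5 CPM in tdTomato+ stroma (log2 fold change 2.40 ± 0.12, adjusted p = 5.1e-11). Ifi30, the lysosomal thiol reductase (1.37 ± 0.16), and Lgmn, legumain (1.08 ± 0.11), were higher too. Ctss, cathepsin S, which cleaves the invariant chain in professional antigen-presenting cells, was the exception, at 0.280 ± 0.293 CPM in GFP+ and 4.84 ± 3.47 CPM in tdTomato+ stroma (-4.21 ± 0.82, adjusted p = 4.6e-04). In luminal cells 5 were tested, with 1 higher and 1 lower in GFP+ cells beside 15.7% and 19% of all genes. Sppl2a, which degrades the remnant of the invariant chain, was higher (151 ± 11.8 against 106 ± 25.3 CPM). Lgmn was lower (13.5 ± 2.40 against 21.0 ± 6.02 CPM).

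The general promoter factors were all measured. All 7 (Rfx5, Rfxap, Rfxank, Nfya, Nfyb, Nfyc and Creb1) were tested in each lineage. Their counts stand beside 21.3% of all genes lower in stroma and 15.7% higher in luminal cells. In GFP+ stroma 2 were lower, Nfyb (log2 fold change -0.64 ± 0.13) and Rfx5 (-0.48 ± 0.12). In GFP+ luminal cells 2 were higher, Rfxap (14.1 ± 4.15 against 6.90 ± 1.25 CPM, 1.00 ± 0.18) and Nfyc (0.41 ± 0.07). With E+P, Rfxank was lower in tdTomato+ luminal cells (-0.72 ± 0.15, adjusted p = 0.00271) and Nfyc higher in GFP+ luminal cells (0.47 ± 0.10, adjusted p = 0.00682).

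Interferon gamma signalling genes, which act upstream of Ciita, were all tested (8 of 8). The 2 of 8 higher in GFP+ stroma stand beside 20.6% of all genes, and the 2 higher and 2 lower in GFP+ luminal cells beside 15.7% and 19%. In GFP+ stroma 2 were higher than in tdTomato+ stroma, the receptor chains Ifngr1 (154 ± 24.4 against 46.3 ± 12.01 CPM, log2 fold change 1.78 ± 0.13) and Ifngr2 (0.87 ± 0.14). Between GFP+ and tdTomato+ luminal cells 4 were called. Ifngr1 (1.36 ± 0.14) and Ifngr2 (0.45 ± 0.13) were higher, and Jak2, a receptor-associated kinase (-1.86 ± 0.17), and Irf1, which acts on the Ciita promoter (-0.63 ± 0.16), were lower. Against GFP+ luminal cells, 8 of 8 were higher in GFP+ stroma, beside 27.7% of all genes. Among them were Irf1 (294 ± 80.3 against 52.8 ± 10.3 CPM) and Socs1 (7.40 ± 3.02 against 0.498 ± 0.251 CPM). In tdTomato+ cells 7 were higher in stroma and Jak2 was lower, beside 31.9% and 27.4% of all genes. With E+P, Jak2 rose in tdTomato+ luminal cells from 210 ± 48.8 to 575 ± 61.5 CPM (1.48 ± 0.23, adjusted p = 5.1e-04) and Irf1 fell from 122 ± 36.2 to 52.5 ± 10.8 CPM (-1.19 ± 0.23, adjusted p = 0.00245).

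Of 6 genes for ligands that T cells read beside class II, 4 were tested in the stroma. In GFP+ stroma 1 was higher and 1 lower, beside 20.6% and 21.3% of all genes. Cd40 was higher in GFP+ stroma (3.94 ± 1.48 against 1.203 ± 0.703 CPM) and Icosl was lower (21.7 ± 5.63 against 48.7 ± 15.7 CPM). Against luminal cells 4 of 4 tested were higher in stroma in each label, beside 27.7% of all genes in GFP+ and 31.9% in tdTomato+ cells. Among them was Cd274, the ligand PD-L1, at 47.9 ± 37.9 CPM in GFP+ stroma and 1.88 ± 1.01 in GFP+ luminal cells. Of the 4, 2 were tested in the fit of luminal cells alone. The others passed the filter only through the stromal libraries, so these counts are descriptions. With E+P, Icosl rose (1.62 ± 0.389 to 7.04 ± 1.81 CPM, adjusted p = 0.00170) and Cd274 fell (4.88 ± 1.55 to 1.27 ± 0.552 CPM, adjusted p = 0.00377) in tdTomato+ luminal cells.

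The genes most like the class II pattern were sought by correlation with the mean log2 CPM of H2-Aa, H2-Ab1, H2-Eb1 and Cd74. Over 28 libraries the 10 closest of the genes tested were Gm22270, Hbb-bs, Gm13312, Snora23, Klhl6, Cd53, Vaultrc5, Mapt, Mmrn1 and Stac3, with Pearson's r from 0.912 to 0.934. Of these, 1, Cd53, was on a leukocyte list. All 10 were highest in tdTomato+ stroma, and the points share subsets and mice, so the r values describe that contrast. Over the 28 deviations from group means the closest were Gm45250, Gm42480, Serpina3i, Tll1, Smim15, Gm22422, Snora28, Rps7, Arpc4 and Eif3e, with r from 0.712 to 0.815, and none was on a list. With a prior count of 0.5, 7 of each 10 remained among the first 10.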

How the data were processed

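Raw read counts per gene, deposited by the authors for 28 libraries, were used as they stand. Per the labels and the study's methods, cDNA came from a stranded total RNA kit for very small inputs, was sequenced in paired-end 75 mode and was aligned with STAR 2.5.2a to GRCm38.p5 with a GENCODE annotation. RNA quality varied widely between samples. Symbols and coordinates came from GENCODE M21 (50376 of 50600 IDs) and promoters from RefSeq (GRCm38.p6). Counts were scaled with TMM, low genes were removed with filterByExpr, and edgeR 4.0.16 in R 4.3.3 gave robust quasi-likelihood tests, with 1 group per sorted subset and treatment. Stroma and luminal cells were fitted apart (14 libraries each) and lineages were compared in a fit of all 28. P values were adjusted by Benjamini-Hochberg across every gene of a fit, and a gene was called under 0.01. A standard error is the absolute log2 fold change divided by the square root of F. Log2 CPM have a prior count of 2, and log2 sums of Ptprc alone had 0.1 CPM added.

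GFP+ and tdTomato+ cells with the same sample number in their titles were taken to come from the same mouse. The titles name no mouse, and the study's methods say that the subsets were sorted from individual mice. Deviations from group means of same-mouse libraries correlated at 0.050 on average in stroma and 0.157 in luminal cells, against -0.019 and -0.061 between mice. Untreated and E+P mice are different animals.

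The members, lists and tests were chosen with earlier results of these data known. Named genes are the 8 members in every comparison. From each other list and comparison came up to 4 genes called with the largest fold change and at least 1 CPM in the higher group. Cd3e, Cd79a, Adgre1, Csf1r, Itgax and Flt3 were named always. Another gene that this rule names is not reported here. Brd2, Dexi, Itgb2, Cd79b, H2-Oa, H2-Ob and H2-Ea-ps were added after their values were seen. Alternatives were DESeq2 1.42.0 size factors or its Wald test, voom of limma 3.58.1, library size scaling, no filter, a threshold of 0.05, only the groups compared, a replicate block, and each mouse left out. The fits were tried on simulated counts.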

Additional observations from a re-analysis of the deposited data

Results flagged for a closer look

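In groups of 4 untreated libraries, a value was singled out where its gap to the next library, as a share of the group's range, exceeded Dixon's 95% critical value. Chance marks about 1 in 20 groups, and 3 of 31 were marked, all with the highest library standing out. H2-Eb1 reached 1.97 CPM in 1 untreated GFP+ stromal library, where the next stood at 0.670 CPM. Ptprc reached 0.681 CPM in untreated GFP+ stroma beside 0.0917 CPM. In untreated GFP+ luminal cells Ptprc reached 0.514 CPM beside 0.127 CPM. H2-Eb1 and Ptprc stood out in the same GFP+ stromal library, untreated replicate 1.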

How the results depend on the processing

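Over 10 comparisons, 890 values of single genes under alternatives gave 856 with an unchanged call, 14 that lost it, 20 that gained it and 0 called values with the opposite sign. The number of class II genes called moved by over 1.5 times as follows. Between GFP+ and tdTomato+ luminal cells it went from 2 to 1 with the replicate block, to 0 in untreated mice alone, to 1 in E+P mice alone and ran from 1 to 2 when a mouse was left out. For E+P in GFP+ luminal cells it went from 0 to 1 at a threshold of 0.05 and with DESeq2. For E+P in tdTomato+ luminal cells it went from 0 to 2 at 0.05, to 1 with DESeq2, limma-voom or no filter, and ran from 0 to 1 with a mouse left out. Between GFP+ stroma and GFP+ luminal cells it went from 2 to 1 with limma-voom and ran from 1 to 2 with a mouse left out. The class II and leukocyte sums in GFP+ stroma gave r = 0.837 with Ptprc alone. That r rests on few Ptprc counts, with 0 in 3 of 7 libraries and 9 of the 15 in untreated replicate 1. In tdTomato+ luminal cells r ran from -0.917 to -0.669 with a mouse left out. The block on the mouse changed the call of H2-Eb1 in stroma (log2 fold change -1.75) and H2-DMb1 in luminal cells (-0.93) and no other member's. In comparisons of E+P the block was a number shared by different mice. A fit of only the groups compared is the same fit for GFP+ against tdTomato+ cells and for interactions. Of 64 mean levels, 4 moved by more than 1 SD with scaling by library size only. Depth limits Ciita, H2-Aa and Ptprc most, with at most 3 counts in many libraries; the cause of each shift was not tested.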
